A study of Mus musculus with 5 samples.

Results

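The genes described here make, store, sense and break down histamine: Hdc, Hrh1, Hrh2, Slc18a2 and Hnmt. They were chosen by symbol, with earlier results of these data known, and Hdc was selected on its difference between the sensitive and the resistant T cell library. That difference is therefore given as a description, with no test. All 5 genes were listed once in each of 5 single-cell libraries, among 32285 features in each T cell library and 54987 in each whole-tumor library. Every library came from tumors that 4T1-Thy1.1 mouse mammary cancer cells formed in the mammary fat pad of 12-week-old female BALB/c mice. Treated mice received doxorubicin (DOX) intravenously at 5 mg/kg, 3 times at intervals of 3 days, and control mice received saline. Whole-tumor cells gave a control, a sensitive and a resistant library, and T cells gave a sensitive and a resistant library, where sensitive and resistant refer to the response of the tumor to DOX. Each T cell library held cells of 3 tumors, pooled after magnetic depletion of other immune cells and of cancer cells. The source field of the whole-tumor library labelled resistant named sensitive tumors, against its title and its sensitivity field, which were followed here. The source field of the saline control also named sensitive tumors, and its sensitivity field gave no class. By their Cd3 genes, T cells made up 14.1% of the cells of the library labelled control (69 of 488), 1.49% of the one labelled sensitive (4 of 269) and 4.94% of the one labelled resistant (13 of 263). The paper describes T cells as more frequent in sensitive tumors than in control or resistant ones, whereas the library labelled sensitive had the lowest share here. Whether these 3 whole-tumor libraries carry the right labels was not tested, and every whole-tumor ratio between them depends on the labels.

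Histamine is a small amine made from histidine by 1 enzyme, histidine decarboxylase, the product of Hdc. Mast cells and basophils take it up into granules through the vesicular monoamine transporter encoded by Slc18a2 and release it when their IgE receptor is engaged, whereas neutrophils and some T cells can make it without storing it in quantity. Hrh1 and Hrh2 encode receptors on the cell surface that couple to different G proteins, and Hnmt encodes the methyltransferase that inactivates histamine inside cells.

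With 1 library in each group no test between groups was possible. Levels are unique molecular identifiers (UMIs) of a gene summed over the cells of a gate and divided by all UMIs of those cells, on the usual CPM scale. The intervals are exact 95% Poisson or binomial intervals and cover counting error only, not the spread between mice. Those of levels and ratios also leave out the spread between cells. A gate was a minimum number of marker genes with a UMI, and cells that met several gates were kept apart as mixed. After filters, 3448 and 3091 cells remained in the sensitive and resistant T cell libraries (29894680 and 27753061 UMIs), and 488, 269 and 263 in the control, sensitive and resistant whole-tumor libraries (533320 to 1721937 UMIs). The filters removed 9.85% of the barcodes of the sensitive T cell library and 46.9% of those of the resistant one. The median mitochondrial share over all barcodes was 2.47% in the former and 8.95% in the latter, and its part in the differences between these libraries was not tested. The T cell libraries were not pure: 1943 of 3448 and 1796 of 3091 cells had a Cd3 UMI and met no other gate, and 740 and 510 cells were fibroblasts by their collagen genes. The T cell libraries shared 31 cell barcodes of 3949 and 6116, and the whole-tumor libraries shared none with each other. Whole-tumor and T cell libraries differed in reference and software version and are not compared in level.

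Hdc (ENSMUSG00000027360) lies on the minus strand of chromosome 2 (GRCm38, chr2:126593667-126619299). The results turn on this gene, so the 250 bases before its RefSeq start are shown as context (GRCm38.p6, chr2:126618679-126618928, minus strand). Capitals mark GATA or its reverse complement TATC, the core letters bound by GATA factors, the family of Gata2 in mast cells and Gata3 in T cells. The matches began 220 and 196 bases before the RefSeq start, which lies inside the GENCODE span of the gene.
Hdc promoter: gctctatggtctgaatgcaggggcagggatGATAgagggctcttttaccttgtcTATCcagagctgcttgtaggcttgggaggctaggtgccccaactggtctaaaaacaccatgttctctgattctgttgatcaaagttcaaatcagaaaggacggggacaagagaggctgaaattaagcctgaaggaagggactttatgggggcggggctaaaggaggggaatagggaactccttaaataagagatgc
Of 32851 RefSeq windows of this length, 53.6% held these letters on either strand, so the matches are a description of this window. The other members lie at chr6:114397936-114483296 (Hrh1, plus strand), chr13:54192129-54236180 (Hrh2, plus), chr19:59260896-59296012 (Slc18a2, plus) and chr2:24002910-24049394 (Hnmt, minus), all on GRCm38.

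Neutrophils held the highest Hdc level of any gate in every library. Neutrophils were called by at least 4 of 8 genes such as S100a8, S100a9 and Csf3r, the receptor for granulocyte colony-stimulating factor. In the whole-tumor libraries Hdc stood at 1066 CPM in control neutrophils (95% interval 979.9 to 1158, 564 UMIs, 259 cells). It stood at 1044 CPM in sensitive neutrophils (932.6 to 1166, 317 UMIs, 176 cells) and at 1244 CPM in resistant ones (1119 to 1380, 360 UMIs, 123 cells). The intervals overlapped in every pair of the 3 libraries. At least 1 Hdc UMI was seen in 203, 109 and 93 of these cells.

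In the same libraries the other lineages held few Hdc UMIs. T cells held 3, 0 and 1 in the control, sensitive and resistant library. All 3 Hdc-positive T cells of the control library carried S100a8 or S100a9 UMIs, but so did 58 of its 66 Hdc-negative T cells, so these transcripts were spread over cells of other types in that library. Macrophages, called by C1q and Csf1r among others, held 1, 0 and 1 Hdc UMIs, and keratin-positive cancer cells 2, 0 and 4. Neutrophils exceeded cancer cells 147-fold in the control library (40.6 to 1219) and 159-fold in the resistant one (61.4 to 585). Cells that met no gate stood between, at 345 CPM in control, 599 CPM in sensitive and 149 CPM in resistant tumors. In these ungated cells S100a8 and S100a9 together stood at 102337 CPM in Hdc-positive and 17606 CPM in Hdc-negative cells of the control library, at 93423 and 25552 CPM in the sensitive library and at 25178 and 6869 CPM in the resistant one. Mixed cells held 57, 17 and 22 Hdc UMIs. The neutrophil gate accounted for 83.3%, 81.5% and 90.0% of all Hdc UMIs.

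**Figure D1:**
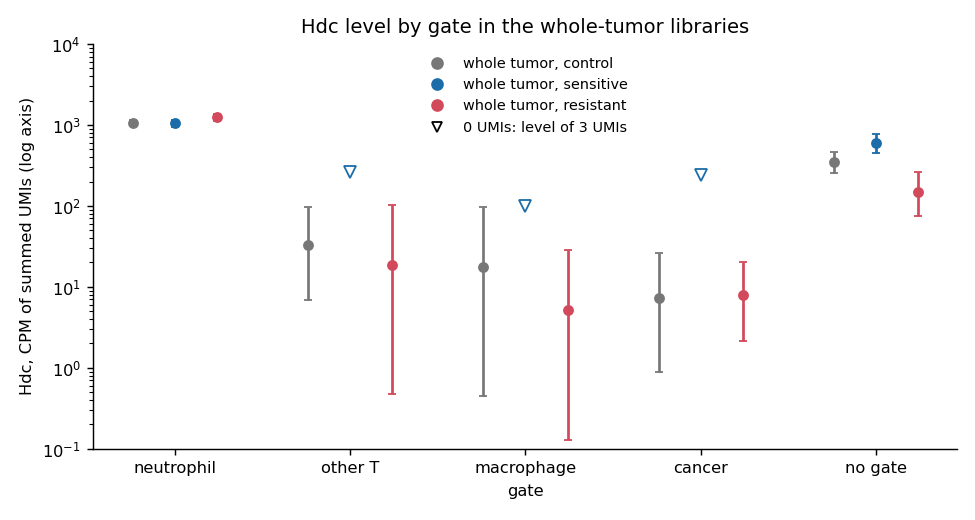
Hdc in CPM of summed UMIs (log axis) by gate in the 3 whole-tumor libraries, with exact 95% Poisson intervals; open triangles stand at the level of 3 UMIs for gates with 0 UMIs. Neutrophils lie between 1044 and 1244 CPM in all 3 libraries, above every other gate.

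Sensitive over resistant lay on opposite sides of 1 for the whole libraries and for their neutrophils. Over all kept cells, Hdc stood at 413 CPM in control, 729 CPM in sensitive and 232 CPM in resistant tumors, a ratio of sensitive over resistant of 3.14 (2.72 to 3.62). As a mean over cells of each cell's CPM that ratio was 1.45. Within neutrophils the same ratio was 0.839 (0.719 to 0.979). Neutrophils made up 53.1% of the cells in control, 65.4% in sensitive and 46.8% in resistant tumors. They supplied 32.3% of all UMIs in control, 56.9% in sensitive and 16.8% in resistant tumors, in the same order as the whole-library level. A change in cell numbers and a change in RNA per cell cannot be told apart in such a sum. Within neutrophils the ratio to control was 0.980 for sensitive (0.851 to 1.13) and 1.17 for resistant tumors (1.02 to 1.33). None of these neutrophil ratios reached 2, a size that 4.52% of 2236 genes reached in sensitive over resistant, 10% in sensitive over control and 8.54% in resistant over control neutrophils. As a mean over cells of each cell's CPM, the ratio of resistant to control lay on the other side of 1, at 0.954.

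Younger neutrophils, which still carry transcripts of the granule genes Ngp or Camp, were given separately. In the control library, 41 neutrophils with an Ngp or Camp UMI had 0.517 times the Hdc level of the 218 without (0.414 to 0.641). The ratio was 1.00 in the sensitive library (0.670 to 1.46, 12 against 164 cells) and 1.09 in the resistant one (0.649 to 1.73, 4 against 119 cells). Among neutrophils with neither UMI, sensitive over control was 0.835 (0.718 to 0.970) and resistant over control was 0.991 (0.859 to 1.14). Among neutrophils with an Ngp or Camp UMI the same ratios lay above 1, at 1.62 (1.05 to 2.45, 12 against 41 cells) and 2.09 (1.21 to 3.44, 4 against 41 cells).

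In the T cell libraries the depletion left few neutrophils, and these again held the highest Hdc level. Hdc stood at 1807 CPM in 125 neutrophils of the sensitive library (1659 to 1966, 543 UMIs) and at 1004 CPM in 143 neutrophils of the resistant one (908.3 to 1106, 405 UMIs). The ratio of sensitive over resistant was 1.80 (1.58 to 2.05), the opposite side of 1 from the whole-tumor neutrophils under the labels followed here. At least 5 Hdc UMIs were found in 50 of 102 Hdc-positive neutrophils in the sensitive library and in 27 of 114 in the resistant one. After each cell was thinned to 1000 UMIs, 63.2% of sensitive and 60.1% of resistant neutrophils kept an Hdc UMI (81.6% and 79.7% before thinning). A ratio of at least 2 was reached by 4.23% of 2840 genes in this gate, and Hdc did not reach it. Neutrophils supplied 51.3% of all Hdc UMIs of the sensitive and 69.3% of those of the resistant T cell library, from 1.00% and 1.45% of all UMIs.

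**Figure D2:**
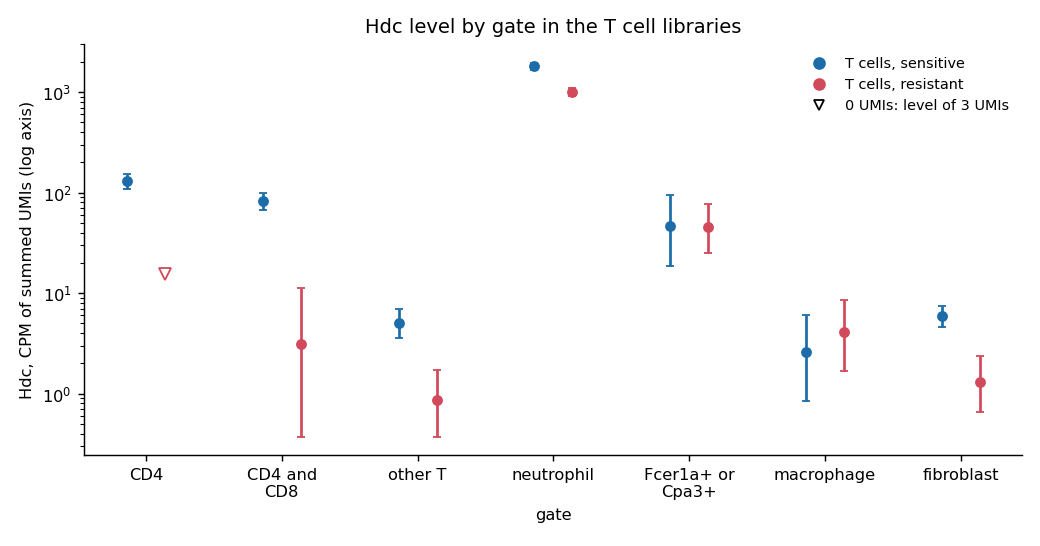
Hdc in CPM of summed UMIs (log axis) by gate in the sensitive and the resistant T cell library, with exact 95% Poisson intervals; the open triangle marks the level of 3 UMIs for a gate with 0 UMIs. The 3 T cell gates and the fibroblast gate are higher in the sensitive library, while the Fcer1a+ or Cpa3+ gate is at 46.5 and 45.7 CPM.

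T cells supplied most of the remaining Hdc UMIs in the sensitive library and almost none in the resistant one. Over all T cells, 275 UMIs in 53 of 1943 sensitive cells stood against 10 UMIs in 7 of 1796 resistant cells, or 28.2 CPM (24.99 to 31.8) against 0.993 CPM (0.476 to 1.83). The ratio was 28.4 (15.2 to 59.9). This ratio mixes level with composition. The CD4 gate, which had the highest Hdc level among sensitive T cells, took in 201 of those 1943 cells. Among resistant T cells it took in 50 of 1796. Each T cell gate is therefore also given separately. The share of genes with a ratio of at least 2 was not computed for all T cells together. CD4 cells, defined by a Cd4 UMI and no Cd8a or Cd8b1 UMI, held 138 Hdc UMIs in 25 of 201 cells of the sensitive library, 130 CPM (109.6 to 154). In the resistant library 0 Hdc UMIs were found in 50 CD4 cells, which at 192450 UMIs allows up to 15.6 CPM. The sensitive level was at least 8.37-fold higher than that floor. A ratio of at least 2 in the CD4 gate was reached by 12.3% of 6122 genes. The single CD4 cell with most Hdc UMIs carried 31 of the 138, and without it the lower bound was 6.57.

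Cells with both Cd4 and Cd8 UMIs held 99 Hdc UMIs in 12 of 122 cells of the sensitive library, 82.2 CPM (66.8 to 100.1), and 2 UMIs in 1 of 88 cells of the resistant one. Their ratio was 26.6 (7.16 to 222), and 7.04% of genes reached 2 in this gate. Barcodes of this gate were deep. Their sensitive median was 8608 UMIs, beside 3923 for CD4 cells and 3821 for the remaining T cells. The resistant medians were 6401, 2947 and 4463.5 UMIs. Whether a barcode with both Cd4 and Cd8 UMIs held 1 T cell or more was not tested. A single cell carried 46 of the 99 UMIs, and without the cell with most Hdc UMIs in each library the sensitive level was at least 9.49-fold higher, since 0 resistant UMIs then remained. The remaining T cells held 38 UMIs in 16 of 1620 sensitive cells and 8 UMIs in 6 of 1658 resistant cells, 5.08 CPM (3.59 to 6.97) and 0.867 CPM (0.374 to 1.71). The ratio was 5.86 (2.69 to 14.5), where 4.15% of genes reached 2. In the sensitive library most of these Hdc UMIs came from T cells with no Cd4 and no Cd8 UMI, and in the resistant one most came from cells with a Cd8 UMI. T cells with neither stood at 32.3 CPM in the sensitive library (22.1 to 45.6, 32 UMIs, 12 of 300 cells) and at 7.75 CPM in the resistant one (1.60 to 22.7, 3 UMIs, 1 of 116 cells), a ratio of 4.16 (1.30 to 21.3). Cells with a Cd8 and no Cd4 UMI stood at 0.925 CPM (0.339 to 2.01, 6 UMIs, 4 of 1320 cells) and 0.566 CPM (0.184 to 1.32, 5 UMIs, 5 of 1542 cells), and their ratio of 1.64 had an interval that includes 1 (0.416 to 6.77). The median gene itself was shifted by 0.15 on the log2 scale in the double gate and by 0.14 in the other T gate, and by 0.10 and 0.12 in whole-tumor sensitive and resistant over control neutrophils. In summed CPM of the sensitive library, CD4 cells lay 25.7-fold above other T cells (17.8 to 37.8) and double-gated cells 16.2-fold (11.0 to 24.2). The order of the first pair depended on the measure: CD4 cells were higher in summed CPM, while after thinning to 1000 UMIs 5.05% of CD4 and 5.74% of double-gated cells kept an Hdc UMI, with overlapping intervals.

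Depth differed between these groups of cells. Hdc-positive CD4 cells of the sensitive library had a median of 7392 UMIs and Hdc-negative ones 3671. After thinning to 1000 UMIs, 10 of 198 CD4 cells (5.05%, 2.45% to 9.09%) kept an Hdc UMI in the sensitive library, and 0 of 50 in the resistant library, which allows a share of up to 6%. At that depth a difference in the share of CD4 cells was not detectable, whereas over all T cells 24 of 1922 (1.25%) and 1 of 1791 (0.0558%) kept an Hdc UMI. The shares over all T cells also depend on how many of them were CD4 cells. As a gauge of free RNA, cancer cells had an Hdc UMI in 2 of 93 and 2 of 113 cells at median depths of 21334 and 21953 UMIs, shares of 2.15% (0.262% to 7.55%) and 1.77% (0.215% to 6.25%). The CD4 share of the sensitive library, 12.4% at a median depth of 3923 UMIs, lay above it with an interval that did not overlap (8.21% to 17.8%). The double-gated share there, 9.84%, had an interval that did (5.19% to 16.6%). The shares in the other T cells, 0.988% and 0.362%, lay below those of cancer cells, which were deeper, and so did the 1.14% of resistant double-gated cells. Whether free RNA had a part in these 3 shares was not tested. Sensitive T cells with neither a Cd4 nor a Cd8 UMI had a share of 4% (2.08% to 6.88%), above that of cancer cells with an overlapping interval. Counted per cell, cancer cells held 0.0215 and 0.0177 Hdc UMIs in the sensitive and resistant library and other T cells 0.0235 and 0.00483. In summed CPM, other T cells of the sensitive library lay above cancer cells, at 5.08 against 0.848. Of the 16 Hdc-positive other T cells of the sensitive library, 2 held at least 5 Hdc UMIs, with at most 11 in a cell. An Il13 UMI was found in 3 of the 16. No cancer cell of either T cell library held more than 1 Hdc UMI. Of the 6 Hdc-positive other T cells of the resistant library, 1 held 3 Hdc UMIs together with 5 of Il13, and the rest held 1 Hdc UMI each.

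**Figure D3:**
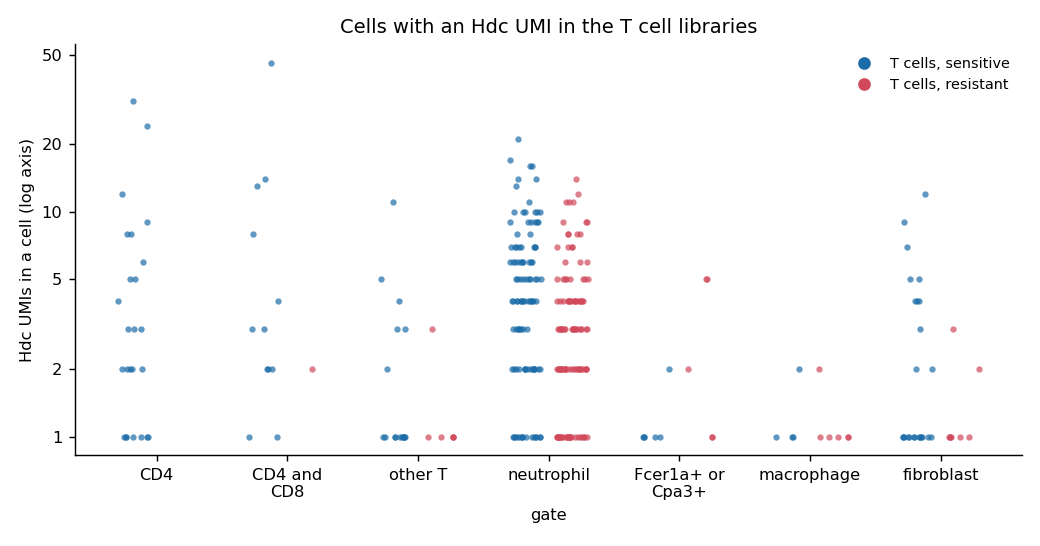
Hdc UMIs (log axis) in each cell with at least 1 Hdc UMI, by gate, in the sensitive and the resistant T cell library; points are spread sideways for display only. CD4 cells of the sensitive library reach 31 Hdc UMIs, and no CD4 cell of the resistant library appears.

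Transcripts of other histamine-making cells were looked for in the 25 Hdc-positive CD4 cells. The IgE receptor chain Fcer1a and the mast cell carboxypeptidase Cpa3 were at 0 by the definition of the gates, which also set aside T cells with 4 or more neutrophil markers. Of the genes the gates left free to appear, the IgE receptor chain Ms4a2, the basophil protease Prss34, the factor Gata2 and the neutrophil genes S100a8 and S100a9 were at 0 UMIs in all 25 cells. Prss34 had 0 UMIs over all kept cells of both T cell libraries, so its 0 was fixed beforehand. Ms4a2 and Gata2 were also at 0 in the 176 Hdc-negative CD4 cells, of which 1 had an S100a8 or S100a9 UMI. These zeros therefore do not set the Hdc-positive cells apart from the Hdc-negative ones. At least 2 of the other neutrophil markers were found in 1 of the 25 and in 0 of 176 Hdc-negative CD4 cells. Cd3e, the signalling chain of the T cell receptor complex, was found in all 25, and its level was 0.929 times that of Hdc-negative CD4 cells (0.815 to 1.06). Foxp3, the factor of regulatory T cells, was at 0 in all 25 and had a UMI in 21 of 176 Hdc-negative cells. Mcpt8, a basophil protease, was high in 1 of the 25 cells, which held all 161 of its UMIs together with 45 UMIs of the granzyme Gzme and 24 of Hdc. Of the 15 basophil and mast cell genes listed, Cd200r3 also had UMIs, in 3 of 25 cells, and Cyp11a1 in 14 of 25.

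Type 2 genes differed among themselves in these cells. Il13, a cytokine of type 2 immunity, was found in 20 of 25 Hdc-positive and 33 of 176 Hdc-negative CD4 cells, and its level was 10.6-fold higher in the former (9.56 to 11.7), with 59.5% of their Il13 UMIs in 1 cell. Il4, which drives type 2 differentiation, was found in 18 of 25 and 32 of 176 cells, though 606 of its 646 UMIs lay in 1 cell. Il5, a cytokine that acts on eosinophils, was found in 2 of 25 and 5 of 176 cells, with 503 of its 507 UMIs in 1 cell. Il10 stood at 0.756 (0.367 to 1.44) and Il1rl1, the receptor for interleukin-33, at 1.10 (0.567 to 2.02) times the level of Hdc-negative cells. Cyp11a1, the enzyme that starts steroid synthesis and a member of the basophil and mast cell list, was found in 14 of 25 and 21 of 176 cells and was 10.8-fold higher (7.93 to 15.1). After thinning to 1000 UMIs, Il13 remained in 14 of 25 Hdc-positive cells (56.0%, 34.9% to 75.6%) and 19 of 173 Hdc-negative cells (11.0%, 6.74% to 16.6%). Cyp11a1 remained in 9 of 25 (36.0%) and 4 of 173 cells (2.31%), and Gata3 in 8 of 25 (32.0%) and 37 of 173 (21.4%). Il4 remained in 28.0% (12.1% to 49.4%) and 6.94% (3.64% to 11.8%), and Penk, the precursor of enkephalins, in 40.0% (21.1% to 61.3%) and 13.9% (9.10% to 19.9%). Of these 5 genes, the intervals overlapped for Gata3 and not for Il13, Cyp11a1, Il4 and Penk. In level, the remaining type 2 genes were also higher in Hdc-positive cells: Gata3 1.36-fold (1.07 to 1.71), Penk 4.60-fold (4.22 to 5.02), Crabp2 4.68-fold (3.43 to 6.43) and Akr1c18 5.04-fold (3.75 to 6.82). Single cells carried 446 of the 1271 Penk, 85 of the 104 Crabp2 and 78 of the 120 Akr1c18 UMIs of the Hdc-positive cells. Crabp2 was found in 7 of 25 Hdc-positive and 9 of 176 Hdc-negative cells, and Akr1c18 in 2 and 6.

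**Figure D4:**
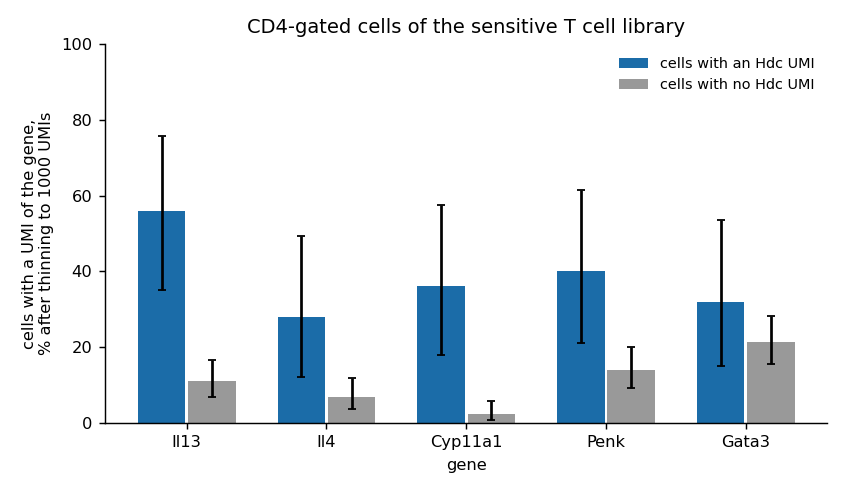
Share of CD4-gated cells of the sensitive T cell library with a UMI of each gene after every cell was thinned to 1000 UMIs, in percent, for 25 cells with and 173 cells without an Hdc UMI; bars show exact 95% binomial intervals. Il13 is found in 56.0% of cells with an Hdc UMI and in 11.0% of those without.

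By the rule for named genes, the 10 genes with the highest ratio of Hdc-positive over Hdc-negative CD4 cells, among genes with at least 20 UMIs in the former, were Mcpt8, Trbv3, Nupr1, Gzme, Il4, Il5, Cd209e, Fcgrt, Calca and Cyp11a1. The rule asked for UMIs in the Hdc-positive cells alone, so these genes had to be high there, and their order is a description. Most of these rested on single cells. Mcpt8, Gzme, Cd209e and Fcgrt were each found in 1 of the 25 cells and in 0 of the 176 others, Trbv3 and Il5 in 2 and Nupr1 in 4. Calca, which encodes calcitonin gene-related peptide, was found in 6 of 25 and 4 of 176 cells and was 18.9-fold higher (6.497 to 74.98). Cyp11a1, Il4 and Calca were thus the ones of the 10 found in more than 4 Hdc-positive cells.

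Seen from the cytokine, Hdc stood at 261 CPM in the 53 CD4 cells of the sensitive library with an Il13 UMI (215 to 313, 20 cells with Hdc) and at 35.9 CPM in the 148 without (22.5 to 54.3, 5 cells with Hdc). In the resistant library 4 of 50 CD4 cells had an Il13 UMI, and 0 of those 4 had an Hdc UMI. Over the whole CD4 gate, levels of the type 2 cytokines rested largely on single cells. Il13 stood at 2005 and 1663 CPM in sensitive and resistant CD4 cells, and at 1110 and 27.6 CPM without the cell with most Il13 UMIs in each library, which left 1149 and 5 UMIs. Il5 stood at 530.2 and 93.5 CPM (561 and 18 UMIs), and 58 and 0 UMIs remained without such cells. Il4 stood at 672 and 5.20 CPM (711 UMIs, 606 of them in 1 cell, against 1 UMI), and Gata3 at 335 and 187 CPM. Of the 9 type 2 genes listed, 5 had a ratio of at least 2 and 0 a ratio of 0.5 or lower, where 12.3% and 4.198% of all 6122 genes did. The median was 3.76 when lower bounds were taken as values, beside 1.07 over all genes. Without the cell with most UMIs of each gene in each library, 7 of the 9 reached 2, and 5 of these were lower bounds against 0 resistant UMIs. Of 15 basophil and mast cell genes, 8 were at 0 in the CD4 cells of both libraries, Fcer1a and Cpa3 among them by the definition of the gate. Of the 5 with a ratio, 3 reached 2, beside the same 12.3% of all genes: Cyp11a1, Mcpt8 and Cd200r3. Without the cell with most UMIs of each gene, Cyp11a1 alone did, at least 10.5-fold higher. Both lists were drawn up with results of these libraries known.

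Cells with an Fcer1a or Cpa3 UMI, the gate meant for mast cells and basophils, were few. They numbered 27 among sensitive and 33 among resistant cells of the T cell libraries, and 0 of 488, 269 and 263 in the control, sensitive and resistant whole-tumor libraries. Mast cell proteases marked most of the sensitive ones: 20 of 27 had at least 3 of 10 further mast and basophil genes, against 8 of 33 in the resistant library. In the 20 and 8 cells the tryptase Tpsab1 reached 547 and 171 UMIs and the chymase Cma1 398 and 187 UMIs, while Prss34 was at 0. A Cd3 UMI was present in 12 of the 27 and 22 of the 33 cells, and another lineage's gate was met by 3 and 11, so the gate also held cells of other types.

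Hdc in these cells was lower than in neutrophils. Sensitive cells stood at 46.5 CPM (18.7 to 95.8, 7 UMIs in 6 cells) and resistant cells at 45.7 CPM (24.98 to 76.7, 14 UMIs in 5 cells), a ratio of 1.02 (0.348 to 2.70). With cells of any other gate left out, 13 and 3 cells remained with 3 and 2 Hdc UMIs, 85.3 CPM (17.6 to 249.3) and 116 CPM (14.0 to 417). Neutrophils exceeded the whole gate 38.9-fold in the sensitive (18.7 to 97.1) and 22.0-fold in the resistant library (12.9 to 40.5). Their excess over the restricted cells was smaller, as the levels of those cells were higher. In the cells with at least 3 further markers Hdc stood at 104 CPM (38.0 to 226) and 111 CPM (44.5 to 228), from 6 and 7 UMIs. No cell carried more than 2 Hdc UMIs in the sensitive library and none more than 5 in the resistant one. Of the 2 resistant cells with 5 Hdc UMIs, 1 held 257 UMIs of Cma1, Mcpt4, Tpsb2 and Tpsab1 and the other held 694 UMIs of S100a8 and S100a9 with a single Cpa3 UMI.

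Fibroblasts, called by at least 4 of 7 collagen and other matrix or platelet-derived growth factor receptor genes, held a low Hdc level. It was 5.96 CPM in the sensitive library (4.64 to 7.52, 70 UMIs in 24 of 740 cells) and 1.31 CPM in the resistant one (0.654 to 2.34, 11 UMIs in 8 of 510 cells), a ratio of 4.54 (2.39 to 9.52). A ratio of at least 2 was reached by 4.26% of 12255 genes in this gate. In the sensitive library 38 of the 70 UMIs lay in 5 cells, which had 38374 to 68234 UMIs each beside a gate median of 13044, and which carried 122 to 513 Col1a1 UMIs and 0 of S100a8 and S100a9. As a mean over cells of each cell's CPM the ratio was 1.78, and after thinning 4 of 729 and 2 of 509 cells kept an Hdc UMI. Whether those deep barcodes held 1 cell each was not tested. Macrophages stood at 2.62 CPM (0.850 to 6.11) and 4.14 CPM (1.66 to 8.53), a ratio of 0.632 (0.158 to 2.31).

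Cells that met the T and the neutrophil gates together, kept apart as mixed, held 112 Hdc UMIs in 15 of 15 sensitive cells and 85 in 15 of 25 resistant cells. Their level of 1653 CPM in the sensitive library was near the 1807 CPM of the neutrophil gate. In the resistant library their 465 CPM lay below its 1004 CPM. The ratio for neutrophils of the T cell libraries rose from 1.80 to 2.17 when mixed cells were given to the lineage with more marker UMIs.

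Hrh2 had 41 UMIs in each T cell library, of which T cells held 30 and 17. The 30 UMIs lay in 27 of 1943 sensitive T cells, 3.08 CPM (2.08 to 4.40), and the 17 UMIs in 17 of 1796 resistant ones, 1.69 CPM (0.984 to 2.70). The ratio was 1.82 (0.974 to 3.52), an interval that includes 1. In the CD4 gate Hrh2 was at 0 in both libraries. T cells with a Cd8 UMI and no Cd4 UMI held 22 and 17 UMIs, 3.39 CPM (2.12 to 5.13) and 1.92 CPM (1.12 to 3.08). Fibroblasts lay lower, at 0.0851 CPM (1 UMI) and 0.357 CPM (3 UMIs). T cells exceeded them 36.2-fold in the sensitive (6.02 to 1477) and 4.72-fold in the resistant library (1.37 to 25.2). Cancer cells had 0 Hrh2 UMIs in both libraries. Neutrophils held 2 and 3 UMIs, 6.66 CPM (0.806 to 24.0) and 7.43 CPM (1.53 to 21.7), 2.16-fold (0.250 to 8.52) and 4.40-fold (0.827 to 15.2) the T cell level, intervals that include 1. Dendritic cells of the resistant library held 4 UMIs, 9.08 CPM (2.47 to 23.3), which was 5.38-fold the T cell level there (1.32 to 16.5), and those of the sensitive library held 0. Macrophages held 1 and 5 UMIs. The whole-tumor libraries held 1, 0 and 2 Hrh2 UMIs in the control, sensitive and resistant library.

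Hrh1 was close to the limit of detection. T cell libraries held 5 sensitive and 4 resistant UMIs, of which macrophages held 2 and 3 at 1.05 CPM (0.127 to 3.78) and 1.77 CPM (0.366 to 5.19). T cells and neutrophils held 0 Hrh1 UMIs in both T cell libraries, which allows up to 0.308 and 0.298 CPM in T cells and up to 9.99 and 7.43 CPM in neutrophils. All 3 whole-tumor libraries were at 0, which allows up to 1.83, 5.63 and 1.74 CPM over the control, sensitive and resistant library.

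Slc18a2, the granule transporter, had 8 UMIs in 8 cells of each T cell library and 0 in the whole-tumor libraries. The Fcer1a+ or Cpa3+ gate held 4 of the 8 in the sensitive library, 26.6 CPM (7.24 to 68.0), and 3 of the 8 in the resistant one, 9.79 CPM (2.02 to 28.6). All 7 lay in cells with at least 3 further mast and basophil markers. The gate exceeded T cells 129-fold in the sensitive (18.6 to 1431) and 32.8-fold in the resistant library (4.40 to 245), on these few counts. Neutrophils, which held most of the Hdc UMIs in both T cell libraries, had 0 Slc18a2 UMIs, and so did CD4 cells. For resistant CD4 cells the floor given above exceeds the 9.79 CPM of the Fcer1a+ or Cpa3+ gate there, so their 0 shows no difference. At their depth sensitive and resistant neutrophils allow up to 9.99 and 7.43 CPM. The gate was at least 2.66-fold higher than neutrophils in the sensitive library, with a lower limit of 1.32 once the counting error of its 4 UMIs is included, and in the resistant one its own 3 UMIs lay at the floor.

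Hnmt was found in neutrophils, macrophages and fibroblasts and was at 0 in T cells. Neutrophils stood at 19.97 CPM (7.33 to 43.5, 6 UMIs) and 17.3 CPM (6.97 to 35.7, 7 UMIs) in the sensitive and resistant T cell libraries. Macrophages stood at 6.81 CPM (3.62 to 11.6, 13 UMIs) and 1.77 CPM (0.366 to 5.19, 3 UMIs), a ratio of 3.84 (1.05 to 21.0). Fibroblasts stood at 1.62 CPM (0.973 to 2.52, 19 UMIs) and 2.26 CPM (1.36 to 3.54, 19 UMIs), a ratio of 0.714 (0.358 to 1.43). T cells held 0 Hnmt UMIs of 9742244 and 10066459, which allows up to 0.308 and 0.298 CPM, so neutrophils were at least 64.9-fold and 58.2-fold higher than that floor of 3 counts. With the counting error of the 6 and 7 neutrophil UMIs included, the lower limits were 38.2 and 36.0. Neutrophils exceeded fibroblasts 12.4-fold (4.04 to 32.2) and 7.66-fold (2.72 to 19.0). In the whole-tumor libraries neutrophils held 6, 4 and 3 Hnmt UMIs, 11.3 CPM (4.16 to 24.7) in control, 13.2 CPM (3.59 to 33.7) in sensitive and 10.4 CPM (2.14 to 30.3) in resistant tumors, with overlapping intervals. The ratio for neutrophils of the T cell libraries was 1.15 (0.320 to 4.00), and 0.599 as a mean over cells of each cell's CPM.

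**Figure D5:**
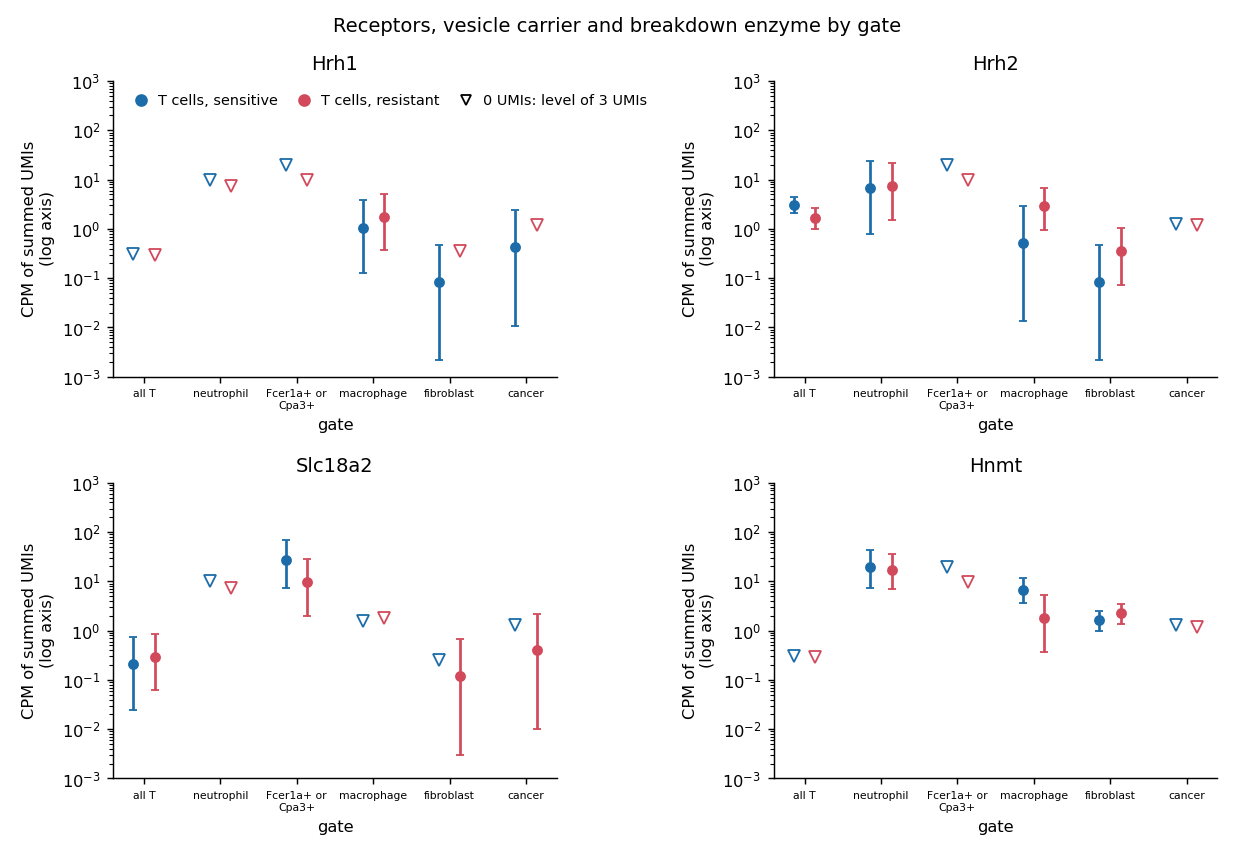
Hrh1, Hrh2, Slc18a2 and Hnmt in CPM of summed UMIs (log axis) by gate in the sensitive and the resistant T cell library, with exact 95% Poisson intervals; open triangles mark the level of 3 UMIs for gates with 0 UMIs. Hrh2 is found in T cells, neutrophils and macrophages, Slc18a2 is highest in the Fcer1a+ or Cpa3+ gate, and Hnmt is at 0 in T cells of both libraries.

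Of 10 further histamine genes, 7 had a UMI in a T cell library and 3 in a whole-tumor library. Hrh3, a receptor of neurons, Aoc1, the diamine oxidase that breaks down histamine outside cells, and the organic cation transporter Slc22a3 were at 0 in all 5 libraries. Hrh4, the receptor of blood cells, had 5 sensitive and 2 resistant UMIs. Maoa and Maob, oxidases acting after Hnmt, had 212 and 178 and 118 and 116 UMIs. Their ratios were 1.11 (0.902 to 1.36) and 0.944 (0.725 to 1.23). Fibroblasts held 112 and 87 of the Maoa UMIs. Hal, which removes histidine by another route, stood at 103 and 122 CPM in macrophages of the sensitive and resistant T cell libraries, and its ratio over all cells was 0.841 (0.711 to 0.995). Neutrophils held 12 and 4 Hal UMIs, a ratio of 4.03 (1.22 to 17.1). Of 5 genes with enough UMIs for a ratio over all kept cells, Hrh4 alone reached 2 there, at 2.32 on 7 UMIs (0.380 to 24.4), where 4.26% of 15100 genes did. As a mean over cells its ratio was 1.05.

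The genes whose pattern was most like that of Hdc were found by Pearson's r of log2(CPM + 10) over 20 points, 10 gates in each of the T cell libraries, among 12237 genes. They were Mboat7, a phospholipid acyltransferase (r = 0.94), Ffar2, a receptor for short-chain fatty acids (0.92), Csrnp1 (0.91), Gadd45b, a stress-induced gene (0.90), and Ppp1r15a, which restores translation after stress (0.88). The points share 2 libraries and the same gates, so r is a description. The type 2 genes lay far below, at r = 0.15 for Il13 and 0.33 for Il4, and the mast cell gene Cpa3 at 0.15. Hdc was highest in the neutrophil points, where Il13, Il4 and Cpa3 had 0 UMIs. Their low r over gates therefore does not bear on which genes were found in Hdc-positive CD4 cells.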

How the data were processed

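Single-cell suspensions of mouse tumors were captured with 10x Genomics chemistry. The authors deposited UMI counts per gene and barcode, made with Cell Ranger on mm10 (per the file headers, version 6.0.0 for the T cell and 3.0.1 for the whole-tumor libraries). The members, gates and gene lists were chosen with earlier results of these data known. From the counts, barcodes with fewer than 500 genes or over 10% mitochondrial UMIs (T cell libraries), or fewer than 200 genes (whole-tumor libraries, whose mitochondrial features held 0 UMIs), were removed. Cells with the highest Scrublet scores (scanpy 1.11.5), at a preset 0.8% per 1000 barcodes, were removed as putative doublets from the T cell libraries (112 sensitive, 159 resistant), and no caller was run on the small whole-tumor libraries. Gates needed the following number of distinct markers: T 1 of 3 (Cd3 genes), NK 2 of 4, neutrophil 4 of 8, macrophage 4 of 8, dendritic 3 of 7, B 2 of 4, fibroblast 4 of 7, endothelial 2 of 4, cancer 3 of 6 and eosinophil 2 of 4. Any Fcer1a or Cpa3 UMI took precedence. These minimums were set after the marker counts per cell had been seen. Ratios of CPM have exact conditional binomial intervals, and a group at 0 was set to 3 counts. The share of genes with a ratio of at least 2 was taken over genes with at least 20 UMIs in both libraries together. Shares were also taken after each cell was thinned to 1000 (T cell) or 500 UMIs (whole tumor) in 1 seeded draw. Genes named beside the members followed from the fixed lists, from the highest ratios in Hdc-positive CD4 cells and from the patterns most like Hdc. Sequences came from RefSeq (GRCm38.p6) and gene positions from GENCODE annotation of GRCm38; all 5 members matched both. The interval and ratio code was tested on simulated counts.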

Additional observations from a re-analysis of the deposited data

Results flagged for a closer look

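The ratio of Hdc between sensitive and resistant neutrophils lay on opposite sides of 1 in the 2 kinds of library: 1.80 (1.58 to 2.05) in the T cell libraries and 0.839 (0.719 to 0.979) in the whole-tumor libraries. The difference between these ratios was not tested, since each rests on 1 library per group. The second ratio also depends on whole-tumor labels that conflict among their fields, and the whole-tumor library labelled sensitive had the lowest T cell share of the 3, 4 of 269 cells. With the sensitive and resistant whole-tumor labels exchanged, the second ratio would lie above 1, on the same side as the first. The neutrophils of the T cell libraries were those that remained after magnetic depletion, 125 and 143 cells, against 176 and 123 in whole tumors. Among neutrophils with no Ngp or Camp UMI the ratios were 1.73 (1.51 to 1.98) and 0.843 (0.718 to 0.989). Among those with one they were 3.72 (1.85 to 7.51; 2 against 4 cells) and 0.776 (0.425 to 1.45; 12 against 4 cells).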

How the results depend on the processing

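Of 219 values recomputed under other settings, 189 stayed within the interval of the reported value (counts of genes, within 1.5 times it), 29 moved out of it and 1 whose interval excluded 1 changed direction. Among them were 129 ratios, of which 123 stayed, 5 moved and 1 was that change of direction, and the remaining moves were in levels, in shares of cells with a UMI and in 1 count of genes. The ratio of Hdc in neutrophils, resistant over control whole tumor, was 0.954 as a mean over cells against 1.17 as reported, and the cause was not tested. Of the ratios that stayed, 4 with an interval around 1 crossed 1: Hnmt in neutrophils of the T cell libraries, from 1.15 to 0.599 as a mean over cells and 0.806 with every barcode, and Hdc in the Fcer1a+ or Cpa3+ gate, from 1.02 to 0.998 with every barcode and 0.746 with 1 more UMI or marker asked. With mixed cells assigned, the sensitive over resistant ratio in neutrophils of the T cell libraries was 2.17. Without the cell with most UMIs of the gene in each library, the lower bound for CD4 cells was 6.57, which follows from the 31 UMIs left out. The fibroblast ratio was 1.78 as a mean over cells, and the Hdc ratio over all cells of the T cell libraries fell from 1.68 to 1.06 when every barcode was kept. Over all alternatives, the CD4 ratio ran from 6.57 to 50.5, with 50.5 resting on 1 resistant UMI; the neutrophil ratio from 1.69 to 2.17 in the T cell libraries and from 0.801 to 0.898 in sensitive over resistant whole tumors. A looser neutrophil gate at 3 markers, an Fcer1a+ or Cpa3+ gate restricted to cells of no other gate, the mean over cells for the whole tumors and the gene lists without their top cells were chosen after seeing the data. The resistant Hdc level in the Fcer1a+ or Cpa3+ gate moved from 45.7 CPM to 116 CPM under that restriction, on 2 UMIs, and to 119 CPM with 1 more UMI or marker asked of every gate, and the sensitive one from 46.5 CPM to 85.3 and 88.6 CPM. No paired analysis was possible because each group had 1 library. Hrh1, Slc18a2 and most gates of Hrh2 and Hnmt were limited by UMI counts below 10.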
